A study of Mus musculus with 6 samples.

Results

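The FOXO-type quiescence genes described here are 10 genes that encode FOXO transcription factors or were grouped with them under this name. They are Foxo1, Foxo3, Pik3ip1, Cdkn1b, Ccng2, Bcl2l11, Sesn1, Klf2, Pdk2 and Tcp11l2. They were measured in macrophages grown from the bone marrow of mice without vimentin and of their wild-type littermates, with 3 Affymetrix arrays for each. Vimentin forms intermediate filaments in myeloid and mesenchymal cells. All animals were 17 weeks old and on a C57BL/6 background, and both genotypes were given the same culture: femoral marrow grown at normal oxygen with CMG14-12 cell supernatant as the source of M-CSF (macrophage colony-stimulating factor), on which these cells depend. The labels call the samples of a genotype biological replicates without saying whether each was a separate animal. The labels name no promoter or cell type that limits the deletion, and do not say whether animals were pooled. The members were all probe sets whose platform annotation names exactly 1 gene symbol, which is 1 of the 10. That gave 25 probe sets of 45037 without controls, for 10 of 18193 genes. Of these 25, 23 had a mean over the 6 arrays that reached the 40th percentile (6.93 on the log2 scale) and were tested. The 10 names were proposed with results of these same arrays known, and which of the values served is not recorded, so the differences between arrays given below describe these arrays and are not independent support for a pattern.

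FOXO proteins are transcription factors that the kinase AKT holds out of the nucleus while growth factors signal through phosphoinositide 3-kinase (PI3K). When that signal is weak, FOXO proteins enter the nucleus and induce genes that stop the cell cycle, promote apoptosis, counter oxidative stress and shift fuel use. In macrophages M-CSF is a main source of the PI3K signal. FOXO activity is set mainly by protein modification, so transcript levels of Foxo1 and Foxo3 need not follow it.

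The DNA word TGTTTAC, a FOXO binding sequence, was searched on both strands (as TGTTTAC and as GTAAACA) in promoter windows of 300 bases, from 250 bases before to 50 bases after the annotated start (RefSeq, GRCm38.p6). All 10 genes had at least 1 window there, 13 in all. Of these, 2 held a match, 1 for Bcl2l11 and 1 for Sesn1, while 3.65% of 32851 windows of all genes held it. In the Bcl2l11 window the match began 227 bases before the start, and in the Sesn1 window 22 bases after it, inside the transcribed part. Both genes also had a second window without the word, and the single window of Pik3ip1, which had the widest range over the wild-type arrays (1.25 log2 units on 1 of its probe sets), held none. A match describes these letters only. The windows with a match are shown, with the Pik3ip1 window beside them, 5′ to 3′ on the plus strand, which is the genes' own strand, and with the match in capitals.
Bcl2l11, chr2:128125788-128126087: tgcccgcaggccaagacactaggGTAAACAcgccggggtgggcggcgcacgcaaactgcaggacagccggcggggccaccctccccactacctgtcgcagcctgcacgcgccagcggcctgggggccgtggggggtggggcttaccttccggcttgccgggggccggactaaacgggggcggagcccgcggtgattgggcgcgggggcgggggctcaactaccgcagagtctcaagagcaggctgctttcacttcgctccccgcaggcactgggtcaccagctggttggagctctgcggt
Sesn1, chr10:41810324-41810623: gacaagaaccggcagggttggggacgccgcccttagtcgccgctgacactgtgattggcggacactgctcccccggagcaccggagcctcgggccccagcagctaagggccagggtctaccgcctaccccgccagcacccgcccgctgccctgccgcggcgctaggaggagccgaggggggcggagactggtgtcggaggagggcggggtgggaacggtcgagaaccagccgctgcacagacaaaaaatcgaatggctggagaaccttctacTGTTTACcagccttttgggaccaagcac
Pik3ip1, chr11:3330481-3330780: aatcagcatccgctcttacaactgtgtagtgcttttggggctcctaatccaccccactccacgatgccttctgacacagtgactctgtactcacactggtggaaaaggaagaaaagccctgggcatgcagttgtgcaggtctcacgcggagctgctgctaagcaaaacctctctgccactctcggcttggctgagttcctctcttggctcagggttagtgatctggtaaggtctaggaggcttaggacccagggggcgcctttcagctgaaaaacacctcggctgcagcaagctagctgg

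Vim itself checked the labels. Its brightest probe set read 8.20, 6.96 and 7.13 on vimentin-deficient replicates 1, 2 and 3, while wild-type arrays ran from 13.24 to 13.41. Vimentin-deficient replicate 3 stood apart from the other arrays: it correlated with them over probe sets at 0.975 to 0.979, and the other 5 with each other at 0.992 to 0.998. The macrophage markers were bright on every array, with a mean of the 8 genes between 11.91, on wild-type replicate 1, and 12.36, on vimentin-deficient replicate 3. Because some of the 10 genes, such as Klf2, Foxo1 and Pik3ip1, are also highly expressed in lymphocytes, markers of other cells were read too. Of 6 T cell markers on the array, Cd3g, Cd3d, Cd2 and Ccr7 lay below the 40th percentile and Cd3e and Il7r above it, and of 5 B cell markers Cd79a, Cd79b and Ms4a1 lay below it and Pax5 and Ebf1 above it. The mean of the T cell markers ran from 7.57 to 7.693 over the vimentin-deficient arrays, with wild-type arrays at 7.695 to 7.75. These ranges barely missed overlapping. Il7r, far brighter than this mean, read 10.17, 10.30 and 11.20 on the vimentin-deficient and 10.91, 10.76 and 10.91 on the wild-type arrays. It overlapped between genotypes, and of the 2 tested T cell markers 1 had a higher and 1 a lower mean without vimentin. Il7r also stands in the FOXO target list below. For the B cell markers these ranges were 6.78 to 6.94 and 6.85 to 6.88. The mean of 6 dendritic cell markers did not overlap between genotypes, at 7.22 to 7.38 on the vimentin-deficient and 7.43 to 7.50 on the wild-type arrays. Of these 6, Itgax, which encodes CD11c and was picked after its values were seen, was the one without overlap (7.91, 7.86 and 8.25 against 9.05, 8.78 and 8.83; limma adjusted p = 0.27), and Cd209a and Ciita lay below the 40th percentile. The means of the neutrophil, stromal, endothelial and erythroid markers overlapped. The part of other cell types in the values of the 10 genes was not tested. In such bulk samples fewer cells of a type and less RNA per cell cannot be told apart.

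For 9 of the 10 genes the arrays of at least 1 genotype spread wider, on the brightest probe set, than the genotype means differed; the exception was Sesn1. Wild-type replicate 1 read below both other wild-type arrays for 22 of 23 tested probe sets, including the brightest probe set of all 10 genes, the exception being a second Sesn1 probe set. For 17 of 23 probe sets, of 8 genes, it and vimentin-deficient replicates 1 and 2 all lay below wild-type replicates 2 and 3. These 3 arrays were not level for all of them. On the brightest Sesn1 probe set wild-type replicate 1 read 11.70, above vimentin-deficient replicates 1 and 2 at 11.30 and 11.28. The median difference between wild-type replicate 1 and the mean of the other two was -0.48 log2 units over the 23 probe sets, and -0.0046 over all 27022 probe sets tested. By more than 0.5 log2 units it was lower for 11 of 23, against 0.381% of all probe sets, and higher for 0 of 23, against 0.433%. These 11 probe sets were of 5 genes, some with several probe sets each. Below both other wild-type arrays lay 35.9% of all probe sets, and 17.7% had the pattern of the 3 low and 2 high arrays. The macrophage markers were also lowest of the wild-type arrays on replicate 1 for 8 of 8 genes, against 37.1% of all genes, with a median of -0.12 and 0 of 8 over 0.5 log2 units lower. These shares are descriptions of the arrays by which the genes may have been picked.

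**Figure D1:**
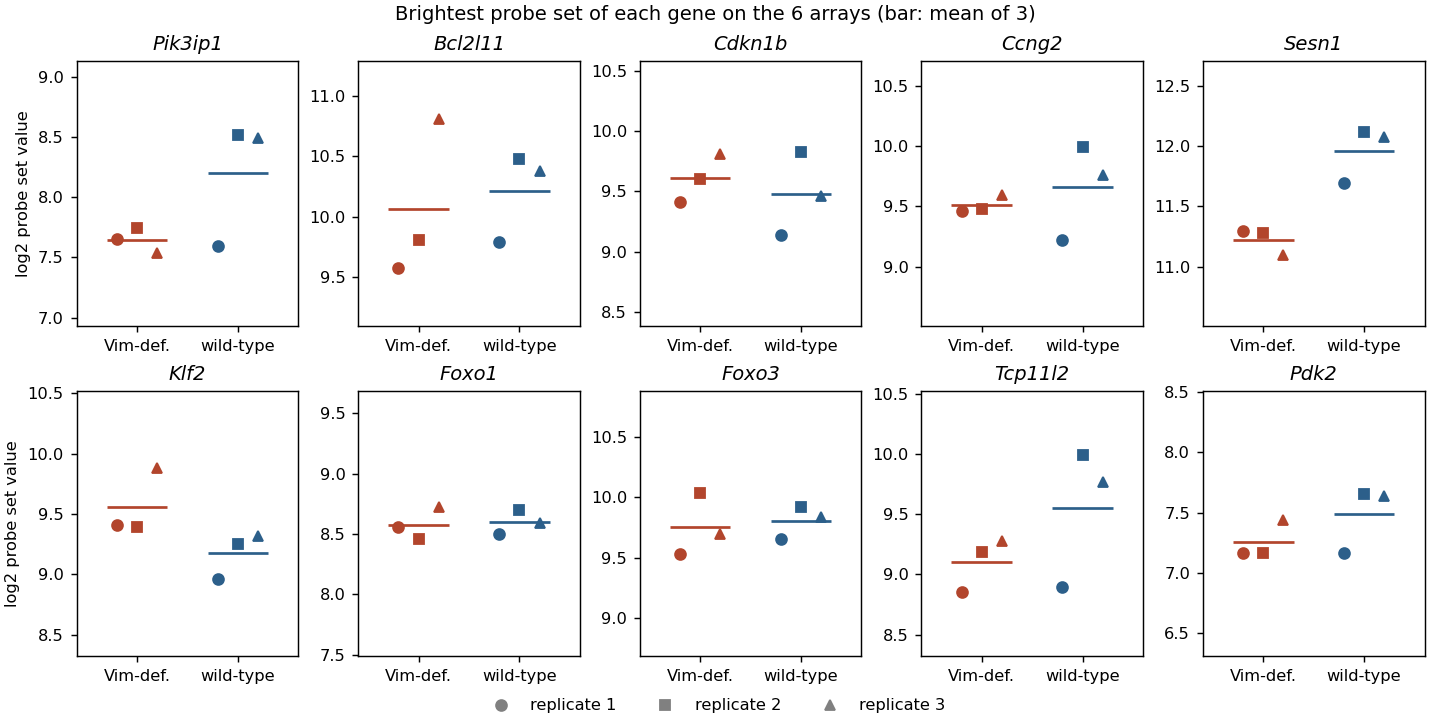
The log2 value of the brightest tested probe set of each of the 10 genes on the 3 vimentin-deficient arrays (red) and the 3 wild-type arrays (blue), with replicates 1, 2 and 3 as circle, square and triangle and the mean of 3 arrays as a bar; each panel spans 2.2 log2 units, and levels of different genes cannot be compared. Wild-type replicate 1 is the lowest wild-type array in all 10 panels, and vimentin-deficient replicate 3 is the highest of all 6 arrays for Bcl2l11, Klf2 and, barely above wild-type replicate 2, Foxo1.

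Foxo1 had the narrowest range over the wild-type arrays of the brightest probe sets (0.20 log2 units), and 0.26 over the vimentin-deficient arrays. It read 8.56, 8.46 and 8.72 on vimentin-deficient replicates 1, 2 and 3 and 8.50, 8.70 and 8.59 on the wild-type replicates in the same order. The groups overlapped fully, and the log2 difference of vimentin-deficient minus wild-type was -0.02 (SE 0.09, limma adjusted p = 0.98). Another Foxo1 probe set lay lower on all 3 vimentin-deficient arrays (7.66, 7.61 and 7.75) than on the wild-type arrays (7.77, 7.88 and 7.91), by -0.18 (SE 0.06, limma adjusted p = 0.62). The third tested one overlapped between the groups (-0.12), and the fourth was too dim to be tested, between 6.82 and 6.96.

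Foxo3, whose product acts beside FOXO1 on largely shared targets, read 9.53, 10.04 and 9.70 on the vimentin-deficient arrays and 9.65, 9.92 and 9.84 on the wild-type arrays. It was highest on vimentin-deficient replicate 2 and lowest on vimentin-deficient replicate 1, so the spread within that genotype (0.50) exceeded the difference between genotypes of -0.05 (SE 0.15, limma adjusted p = 0.95). A second bright probe set kept the same order of arrays, from 9.23 to 9.86. The third was dim, between 7.07 and 7.20, with all vimentin-deficient arrays below all wild-type arrays by a difference of -0.07. A further probe set, between 7.31 and 7.65, names Foxo3 and a predicted gene together and was left out.

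Pik3ip1 encodes a membrane protein that binds PI3K and inhibits it. Its brightest probe set read 7.65, 7.74 and 7.54 on vimentin-deficient replicates 1, 2 and 3 and 7.59, 8.52 and 8.49 on wild-type replicates 1, 2 and 3. Wild-type replicates 2 and 3 were high, and the other 4 arrays lay within 0.21 log2 units of each other, so the wild-type group held both a low and a high level. Wild-type replicate 1 differed from the mean of the other wild-type arrays by -0.91 log2 units, which is 1.88-fold. The other probe set showed the same arrays high, with 7.05 on wild-type replicate 1 against 8.30 and 8.06, a 2.19-fold difference. Between genotypes the brightest probe set differed by -0.55 (SE 0.24, limma adjusted p = 0.70) and the other by -0.64 (SE 0.30, limma adjusted p = 0.71). Without wild-type replicate 1 these became -0.86 and -1.01, with limma adjusted p = 0.17 and 0.16.

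Cdkn1b and Ccng2 encode brakes of the cell cycle. Cdkn1b makes p27, an inhibitor of cyclin-dependent kinases, and read 9.41, 9.60 and 9.81 on the vimentin-deficient arrays and 9.14, 9.83 and 9.46 on the wild-type arrays. The highest and the lowest value were both wild-type, and the genotype difference was 0.13 (SE 0.19, limma adjusted p = 0.90). Its dim probe set stayed between 7.22 and 7.36. Ccng2 makes cyclin G2, an atypical cyclin that is high in resting cells. It read 9.46, 9.48 and 9.59 on the vimentin-deficient arrays and 9.22, 9.99 and 9.76 on the wild-type arrays. All 3 vimentin-deficient values fell inside the wild-type range, with a difference of -0.15 (SE 0.19, limma adjusted p = 0.89), and a second probe set had the same order of wild-type arrays (8.85, 9.52 and 9.44). Wild-type replicates 2 and 3 were 1.58-fold above replicate 1 on the first and 1.55-fold on the second.

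Bcl2l11 makes BIM, a BH3-only protein that triggers apoptosis and is a classic FOXO target when a growth factor is withdrawn. Its brightest probe set had the widest range of the 10 genes over the vimentin-deficient arrays (1.24 log2 units). The brightest probe set read 9.57, 9.80 and 10.81 on vimentin-deficient replicates 1, 2 and 3 and 9.79, 10.48 and 10.38 on wild-type replicates 1, 2 and 3. Vimentin-deficient replicate 3 was the highest array, wild-type replicates 2 and 3 came next, and the other 3 were low. All 5 Bcl2l11 probe sets, which share the target, had vimentin-deficient replicate 3 above the mean of replicates 1 and 2 by 1.01 to 1.26 log2 units, or 2.02-fold to 2.40-fold, and wild-type replicate 1 at -0.64 to -0.61 from the mean of the other wild-type arrays. The genotype difference of the brightest was -0.15 (SE 0.34, limma adjusted p = 0.94). On the 1 probe set with the opposite sign, at 8.68, 8.84 and 10.02 against 8.69, 9.31 and 9.31, it was 0.08 (SE 0.37). Without vimentin-deficient replicate 3 the difference was -0.53 on the brightest and -0.34 on the one of opposite sign, with limma adjusted p = 0.22 and 0.43.

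Sesn1 and Klf2 were the members whose brightest probe set did not overlap between genotypes, in opposite directions. Sesn1 encodes sestrin 1, a stress-induced protein that restrains the growth kinase complex mTORC1 and limits oxidative damage. It read 11.30, 11.28 and 11.09 on the vimentin-deficient arrays and 11.70, 12.11 and 12.07 on the wild-type arrays. Every vimentin-deficient array lay below every wild-type array, wild-type replicate 1 included. The difference was -0.74 (SE 0.13, 1.67-fold) and did not pass the threshold (limma adjusted p = 0.33). The next brightest probe sets had -0.50 (SE 0.20) and -0.63 (SE 0.14), also without overlap, although on the first of them wild-type replicate 3 (11.07) and vimentin-deficient replicate 1 (11.07) were nearly level. The fourth, untested for its low level, lay between 6.61 and 6.99 with vimentin-deficient replicate 3 highest.

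With 5 arrays, leaving out vimentin-deficient replicate 3, the brightest Sesn1 probe set fell in vimentin-deficient macrophages (log2 difference -0.67, SE 0.12, limma adjusted p = 0.0187). In that fit 0.692% of all probe sets were lower and 0.951% higher past the threshold, and among the 23 probe sets of the 10 genes 1 was lower and 0 higher. In the fits without 1 array the difference of this probe set ranged from -0.87 to -0.66, and limma adjusted p from 0.0187 to 0.995. It was past 0.05 only without vimentin-deficient replicate 3. The other tested Sesn1 probe sets did not pass in that fit, at -0.60 and -0.49 (limma adjusted p = 0.065 and 0.30).

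Klf2 encodes a transcription factor that FOXO1 induces in lymphocytes and that restrains inflammatory activation of myeloid cells. It read 9.40, 9.39 and 9.88 on the vimentin-deficient arrays and 8.96, 9.25 and 9.32 on the wild-type arrays. All vimentin-deficient values lay above all wild-type values, although replicates 1 and 2 were close to wild-type replicate 3, and vimentin-deficient replicate 3 was highest. The difference was 0.39 (SE 0.16, 1.31-fold, limma adjusted p = 0.70), and 0.22 without vimentin-deficient replicate 3 (limma adjusted p = 0.44). Klf2 shared the low reading of wild-type replicate 1, at -0.32 from the other wild-type arrays, but not the low readings of vimentin-deficient replicates 1 and 2.

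In Pdk2 and Tcp11l2, as in Pik3ip1 and Ccng2, wild-type replicates 2 and 3 were the highest arrays, while the order of the others differed between these genes. Pdk2 encodes a kinase that switches off pyruvate dehydrogenase and so spares glucose carbon. It read 7.17, 7.17 and 7.44 on the vimentin-deficient arrays and 7.17, 7.66 and 7.64 on the wild-type arrays. Wild-type replicate 1 was level with vimentin-deficient replicates 1 and 2, and the genotype difference was -0.23 (SE 0.15, limma adjusted p = 0.77). Tcp11l2, a gene with a TCP11-like domain, read 8.85, 9.18 and 9.28 against 8.90, 9.99 and 9.77. Wild-type replicates 2 and 3 lay 1.97-fold above wild-type replicate 1, and the genotype difference was -0.45 (SE 0.28, limma adjusted p = 0.77).

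**Figure D2:**
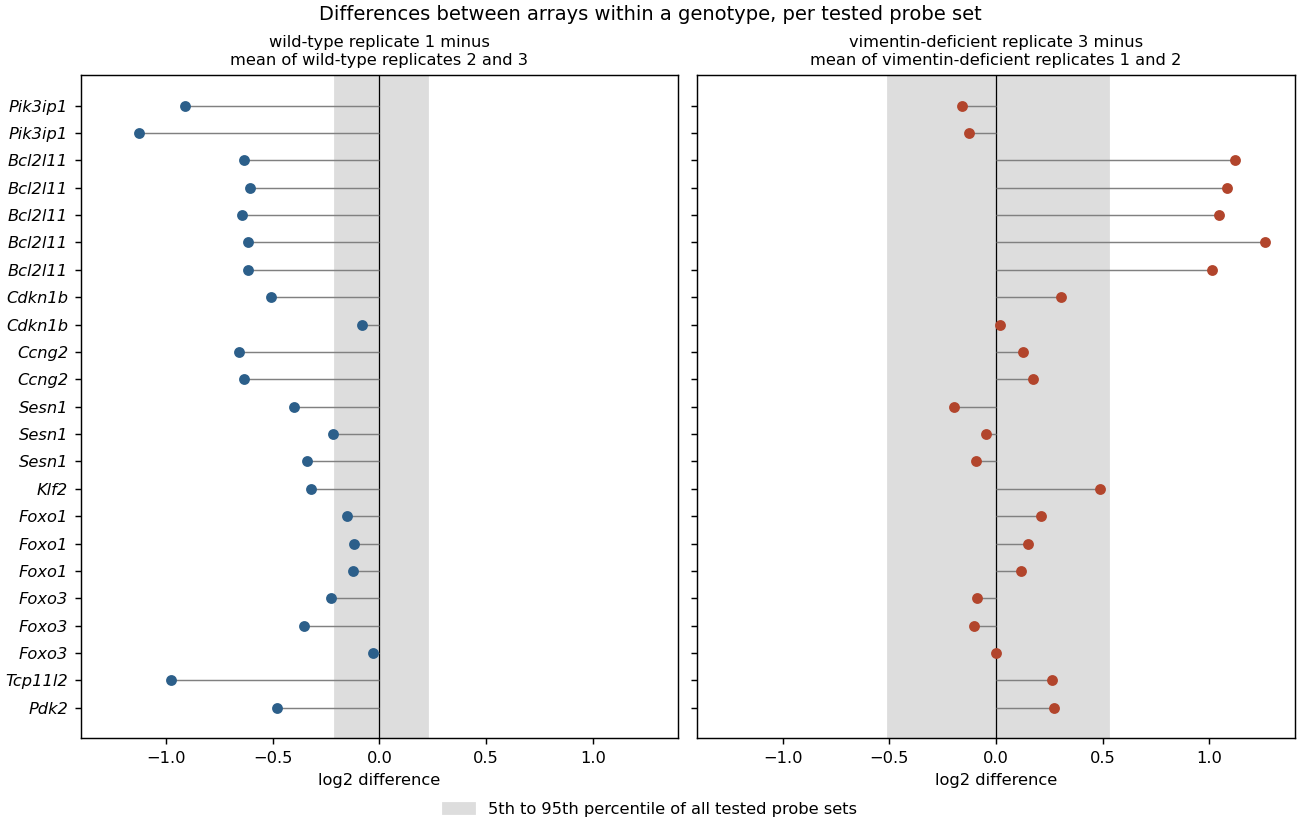
Log2 difference within a genotype for each of the 23 tested probe sets of the 10 genes (1 point each, several per gene): left, wild-type replicate 1 minus the mean of wild-type replicates 2 and 3; right, vimentin-deficient replicate 3 minus the mean of vimentin-deficient replicates 1 and 2. The grey band holds the 5th to 95th percentile of all tested probe sets; on the left all points lie below 0, and on the right only the 5 Bcl2l11 points lie outside the band.

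Among the vimentin-deficient arrays the 10 genes did not move together. Over the 23 probe sets the median difference of vimentin-deficient replicate 3 from the mean of the other two was 0.15 log2 units, against -0.01 over all tested probe sets. Past 1 log2 unit higher lay 5 of 23, all of Bcl2l11, against 1.31% of all probe sets, and past 0.5 the same number, against 5.57%, while 0 of 23 lay over 0.5 lower, against 5.08%. On that array 14 of 23 were above both other vimentin-deficient arrays, against 36.6% of all probe sets. Pik3ip1, Sesn1 and Foxo3 were not: their brightest probe sets differed there by -0.16, -0.20 and -0.09.

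Between genotypes, with all 6 arrays, 0 of the 23 probe sets passed an adjusted p of 0.05, and of all 27022 tested 0.0185% did, all lower in vimentin-deficient macrophages. For higher values limma called 0 of 27022, with 2.96% at an unadjusted p under 0.05. Unadjusted limma p was under 0.05 for 4 of 23, all lower, 3 of Sesn1 and 1 of Foxo1, against 4.23% of all probe sets. Adjusted p of the 23 ran from 0.33 to 0.98. Means were lower in vimentin-deficient macrophages for 19 of 23 and higher for 4, with a median of -0.14 against -0.01 over all tested. The groups did not overlap for 5 probe sets in the lower direction, of Sesn1, Foxo1 and Foxo3, against 8.91% of all, and for 1 in the higher direction, of Klf2, against 5.92%. Without wild-type replicate 1 the median was -0.35 and 21 of 23 were lower, with 0 past the threshold and a smallest limma adjusted p of 0.16. In that fit 9 of 23, of 6 genes, had an unadjusted limma p under 0.05, all lower, against 4.09% of all probe sets. Over all probe sets limma called 0 (1766 at an unadjusted p under 0.05). Wild-type replicate 1 was the lowest wild-type array for 22 of 23, so leaving it out moves these differences down by construction. The 9 of 23 is therefore a description and no independent support for a genotype difference.

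**Figure D3:**
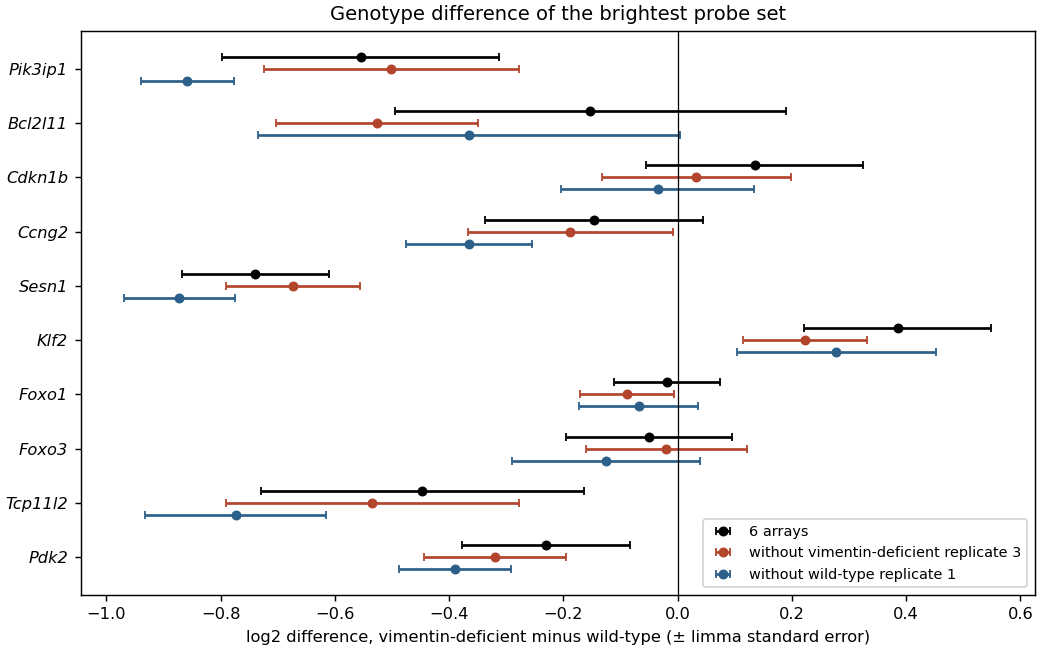
Log2 difference of vimentin-deficient minus wild-type for the brightest probe set of each of the 10 genes, with the standard error of limma as bars, from 6 arrays (black), without vimentin-deficient replicate 3 (red) and without wild-type replicate 1 (blue). Sesn1 stays between -0.87 and -0.67 in these 3 fits, while Bcl2l11 moves between -0.15 and -0.53 and Cdkn1b between 0.13 and -0.04.

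Other genes of the pathway were read from lists, with the brightest probe set of each gene. In the PI3K and AKT pathway 23 of 24 genes on the array were tested and 0 passed limma's adjusted threshold in either direction (1 at an unadjusted p under 0.05, where 7.57% of all genes were), with 9 higher and 14 lower and a median of -0.04 (all genes -0.02). Those with the smallest p were Sgk1, a kinase related to AKT (0.60, SE 0.25), Tsc1, a brake of mTORC1 (-0.11), the PI3K subunit gene Pik3cb (0.22), and the kinase genes Akt1 (-0.12) and Akt2 (-0.15). None of the 23 differed by over 0.5 log2 units between wild-type replicate 1 and the other wild-type arrays. The M-CSF receptor gene Csf1r read 13.06, 13.10 and 13.63 on the vimentin-deficient arrays and 13.09, 13.35 and 13.22 on the wild-type arrays, so wild-type replicate 1 was again the lowest of its group and vimentin-deficient replicate 3 the highest of all.

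Of the other FOXO factors and FOXO target genes, 24 of 31 on the array were tested and 0 passed limma's adjusted threshold with 6 arrays (3 at an unadjusted p under 0.05, all lower), with 7 higher and 17 lower and a median of -0.17. The smallest p belonged to Sesn3, a second sestrin (-0.29, SE 0.08, limma adjusted p = 0.48), Gabarapl1, which helps to form autophagosomes (-0.52, SE 0.16), Atg12, of the same process (-0.24), Trib1 (-0.10) and the thioredoxin inhibitor gene Txnip (-0.31). Wild-type replicate 1 was below both other wild-type arrays for 15 of 24 genes, against 37.1% of all genes, and over 0.5 log2 units below their mean for 3 of 24, against 0.446% of all genes: Gabarapl1 (-0.50), the autophagy kinase gene Ulk1 (-0.50) and Pink1, a kinase of mitochondrial clearance (-0.63), the last 2 picked after their values were seen. Txnip read 11.95 there against 12.51 and 12.37. Without vimentin-deficient replicate 3, 2 of the 24 fell, Gadd45a (-0.89, limma adjusted p = 0.0106) and Il7r, also among the T cell markers (-0.63, limma adjusted p = 0.00669), and 1 rose, Klf4 (0.59, limma adjusted p = 0.00877), against 0.855% and 1.08% of all genes. The antioxidant gene Cat had a difference of 0.20 with 6 arrays.

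Quiescence and growth arrest genes, a list that shares Cdkn1a and Rbl2 with the FOXO target list, did not share a direction. Of 22 genes on the array 21 were tested, 12 higher and 9 lower, with a median of 0.01 and 0 past limma's adjusted threshold (1 higher and 2 lower at an unadjusted p under 0.05). The smallest p belonged to Dyrk1a, a kinase that drives cells into quiescence (0.17), and Mxd1, a repressor that opposes MYC (-0.21). Wild-type replicate 1 was over 0.5 log2 units low for 3 of 21, against 0.446% of all genes: Mxd4 (-0.55), of the same family, Btg2 (-0.59), an antiproliferative factor, and Hbp1 (-0.60), a repressor of the cell cycle. It was over 0.5 log2 units high for 1 of 21, against 0.588%, which was Rbl1 (0.56), the gene of the pocket protein p107. Hbp1 and Rbl1 were picked after their values were seen. Rbl2, which encodes the pocket protein of resting cells p130, read 9.69 on that array against 9.94 and 9.91.

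Genes of cell division and growth factor response stood the other way on wild-type replicate 1. Of 31 tested cell cycle genes 26 were higher there than on both other wild-type arrays, against 32.3% of all genes, and 11 were over 0.5 log2 units higher, against 0.588%. Their mean deviation from the wild-type mean was 0.28, -0.30 and 0.02 on wild-type replicates 1, 2 and 3 and 0.45, 0.22 and -1.42 on vimentin-deficient replicates 1, 2 and 3. The brightest probe sets of the 10 genes had -0.35, 0.23 and 0.12, and -0.32, -0.20 and -0.03. Among the 16 growth factor induced genes 13 were highest of the wild-type arrays on replicate 1, against 32.3% of all genes. There 5 were over 0.5 log2 units higher, against 0.588%. Ccnd1, which encodes cyclin D1, read 12.02 there against 11.02 and 11.40, and 12.11, 12.08 and 9.63 on the vimentin-deficient arrays.

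On vimentin-deficient replicate 3 the cell cycle list had a median of -1.74 log2 units from the mean of vimentin-deficient replicates 1 and 2. The 10 genes went the other way by less, with a median of 0.24, while Pik3ip1, Sesn1 and Foxo3 were lower on this array. It was the lowest array for the cell cycle list, with 27 of 31 genes over 0.5 log2 units below the other vimentin-deficient arrays against 5.97% of all genes, and for sterol synthesis genes with 16 of 16. Birc5, which encodes survivin, read 6.72 on it against 10.21 and 10.12. Of the 10 genes only Bcl2l11 was over 0.5 log2 units higher on it (1 of 10, against 4.67% of all genes). The part of proliferation, of sterol synthesis or of this array in the values of the 10 genes was not tested. The ratio of 3′ to 5′ signal of the Gapdh control probe sets lay between -0.02 and 0.01 log2 units on the 6 arrays, and that of the actin controls between 0.18 and 0.23. For the transferrin receptor controls it did not overlap between genotypes, at 1.36 to 1.44 on the vimentin-deficient and 1.49 to 1.56 on the wild-type arrays. For the pyruvate carboxylase controls it ran from 0.61 to 0.86, and vimentin-deficient replicate 3 was the lowest of the 6 arrays on both of these. The part of RNA quality in the values of the 10 genes was not tested.

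**Figure D4:**
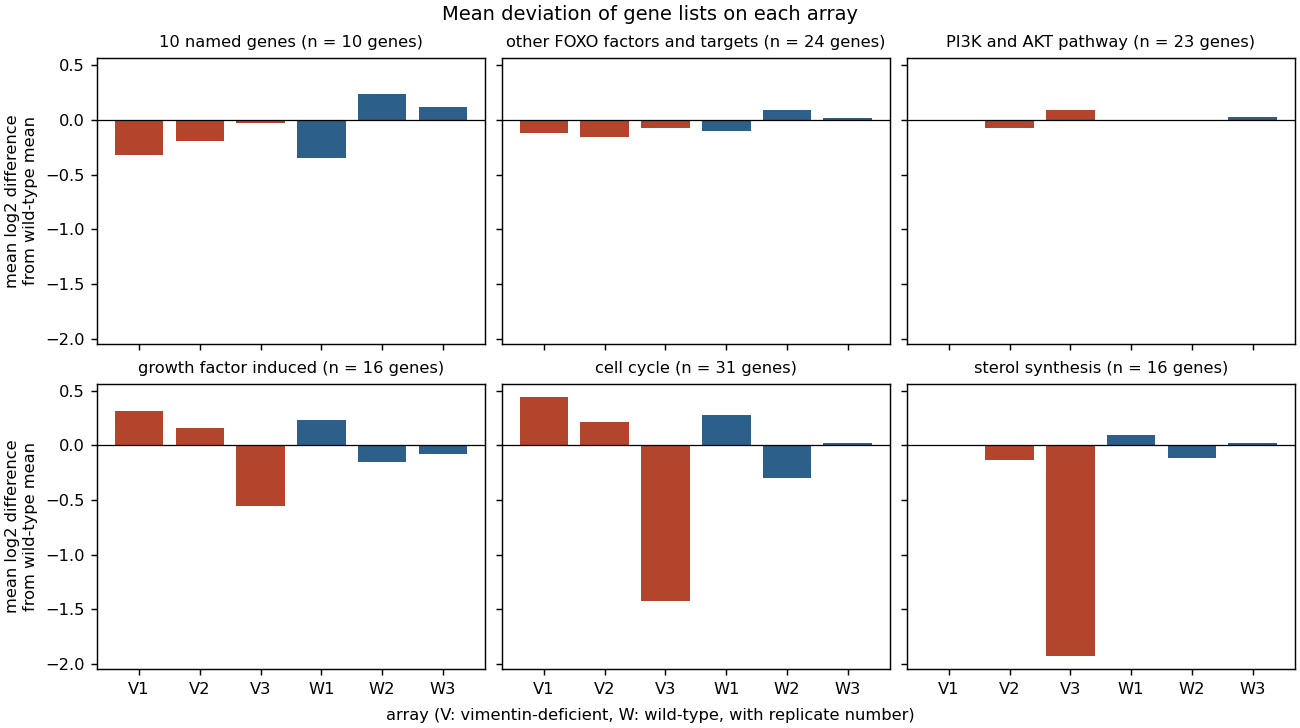
Mean log2 deviation from the wild-type mean, over the brightest tested probe set of each gene, for 6 gene lists on the vimentin-deficient arrays (V1 to V3, red) and the wild-type arrays (W1 to W3, blue); bars start at 0 and hold no error since each is 1 array. On W1 the 10 genes are at -0.35 and the cell cycle genes at 0.28; on V3 the cell cycle genes are at -1.42 and the sterol synthesis genes at -1.93 while the 10 genes are at -0.03.

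Among themselves the 10 genes followed the same order of arrays to differing degrees. Over the 6 arrays the brightest probe set correlated with the mean profile of the other 9 genes at Pearson r 0.94 for Ccng2 and Tcp11l2 and 0.93 for Pdk2. The values were 0.77 for Bcl2l11, 0.72 for Pik3ip1, 0.71 for Cdkn1b and 0.68 for Foxo1, and they were lowest for Sesn1 and Foxo3 (0.40 each) and Klf2 (0.18). Of 13435 other tested genes those most like the mean profile of all 10 were Ctsf, which encodes the lysosomal protease cathepsin F (0.996), Znrf2 (0.995), the nucleotide receptor gene P2ry6 (0.991), Crebrf (0.989), Pcmtd2 (0.989) and Frat2 (0.988). Ctsf read 8.22, 8.32 and 8.51 on the vimentin-deficient arrays and 8.18, 8.72 and 8.62 on the wild-type arrays. These are likenesses over 6 arrays picked from many genes, without a test.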

How the data were processed

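Total RNA of each sample was made into biotin-labelled cRNA, per the labels' protocols. The values are log2 probe set values deposited by the authors; the summary and normalization behind them are not given in the sources used here. They ran from 5.43 to 14.50 with array medians of 7.23 to 7.25 and were used as deposited. Background cannot be separated, so folds of dim genes can be compressed. Of 45101 probe sets, 64 were controls and 34945 named 1 gene. Of the latter, 34741 were matched by Entrez ID and took the RefSeq symbol of that ID.

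Probe sets at or above the 40th percentile went into a limma fit (version 3.58.1, R 4.3.3, lmFit and eBayes with a mean-variance trend), without covariates, adjusted by Benjamini-Hochberg over all 27022, threshold 0.05. The procedure was tested on simulated data. P-values set the genotype difference against the spread between samples within genotypes, which limma moderates across probe sets. That spread may be partly technical, and 3 arrays per genotype limit precision.

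The members and lists were chosen with earlier results of these data known. Named genes were all members, Vim, from each described list up to 5 genes with the smallest p and the 2 brightest, and the 6 genes most like the members' mean profile; others are marked as picked after their values were seen, as were Il7r, Gadd45a and Klf4, which passed in the fit without 1 array. Alternatives covered normalization, the filter, 1 probe set per gene, the variance model, array weights, the replicate number, the threshold and leaving out each array. Promoter sequences are from RefSeq.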

Additional observations from a re-analysis of the deposited data

How the results depend on the processing

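The count of members past the threshold stayed at 0 under quantile normalization, median centring, both other filters, 1 probe set per gene, the other variance models, array weights, the replicate block and a threshold of 0.10. In the fits without 1 array it ranged from 0 to 1 lower, the 1 being Sesn1 without vimentin-deficient replicate 3, and limma called 0 higher. Of 174 recomputed differences of named member probe sets 173 kept their side of the threshold. Neither normalization changed a sign, while 5 brightest probe sets, of Bcl2l11, Cdkn1b, Ccng2, Foxo1 and Foxo3, changed sign on leaving out an array, none of them called. The median difference over the members ranged from -0.35 to -0.02 in those fits. Over all probe sets, 5 were lower and 0 higher with 6 arrays. There were 3 lower with 1 probe set per gene, 3 without the variance trend, 44 higher and 32 lower with array weights, in which vimentin-deficient replicate 3 weighed 0.223, and 0 lower with the replicate block (1934 at an unadjusted p under 0.05). Leaving out 1 array gave 0 to 257 higher and 0 to 187 lower, the largest counts without vimentin-deficient replicate 3. The cause was not tested.

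Deviations of same-numbered arrays from their group means correlated at 0.43, -0.15 and 0.04 for replicates 1, 2 and 3. Pairs of arrays with different numbers ran from -0.42 to 0.34. Whether same-numbered samples shared more than a number cannot be told from so few arrays. The block gave Sesn1 a limma adjusted p of 0.68. The alternatives for wild-type replicate 1 were chosen after seeing the data. With 1 probe set per gene, 5 of 10 were over 0.5 log2 units below the other wild-type arrays in place of 11 of 23, and against the vimentin-deficient arrays the count was 1 and the median -0.12. On vimentin-deficient replicate 3, 1 of 10 was over 1 log2 unit higher with 1 probe set per gene, and 0 of 23 against the wild-type arrays, where the median was -0.06. Signal over background is unknown, which limits the dim probe sets of Foxo1, Foxo3, Cdkn1b and Sesn1.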

Other observations

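Relatives of the 10 genes in the same families were also read, from a list of 23 names with 21 tested, of which Sesn3, Cdkn1a, Cdkn1c, Klf4 and Klf6 also stand in the FOXO target or growth arrest lists. With 6 arrays 0 passed limma's adjusted threshold (1 higher and 1 lower at an unadjusted p under 0.05), 13 were higher and 8 lower in vimentin-deficient macrophages, and the median was 0.04. Sesn3 had -0.29 (SE 0.08), next to -0.74 for Sesn1. Pmaip1, which encodes the BH3-only protein NOXA, read 8.97, 8.83 and 9.70 on vimentin-deficient replicates 1, 2 and 3, while wild-type arrays ran from 8.54 to 8.70, a difference of 0.54 (SE 0.22, limma adjusted p = 0.68). Like Bcl2l11 it was highest on vimentin-deficient replicate 3, but it was not low on vimentin-deficient replicates 1 and 2. Klf9 had 0.20 and Pdk1, a kinase of the same family as Pdk2, -0.30.

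Members of the same families could differ in direction on vimentin-deficient replicate 3. Ccng1, the sister gene of Ccng2, read 11.28, 11.19 and 10.27 on the vimentin-deficient arrays, with wild-type arrays at 11.14 to 11.27, and so was 0.96 log2 units lower on replicate 3 (-0.96 from the mean of the other two), where Ccng2 was at 0.12. Cdkn1a, which encodes the kinase inhibitor p21, was at -1.10 there, and Cdkn1b at 0.31. Wild-type replicate 1 differed from the mean of the other wild-type arrays by -0.07 for Ccng1 and 0.04 for Cdkn1a, against -0.66 for Ccng2 and -0.51 for Cdkn1b. These are values of single arrays, without a test.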
